A study of Arabidopsis thaliana with 4 samples.

Results

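Genes whose co-translational decay index lay low in every library of the study are described here. The index is a ratio without a unit, given once per gene and library. A locus was taken when it had an index in all 4 libraries, when that index was below 0.8 in each of them, and when in each library at most 10 loci held exactly the same value. The last condition sets aside values that recur in many loci, such as 0.5. It does not remove every ratio of small whole numbers. Of 23498 loci with an index in any library, 17049 had one in all 4 libraries, 6572 of these had no shared value (one held by over 10 loci) in any of them, and 24 met the whole rule. For 12 of the 24 no other locus of the same library held the same value in any library. The rest held at least 1 value in common with other loci, within the limit of 10. The members were chosen by their index levels, so those levels are given as a description and not as a test. With the first or the second abh1 library left out the rule gave 30 and 31 loci, and with a Col-0_CHX library left out 58 (first) and 42 (second), sets that hold all 24 members by construction.

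Messenger RNA normally ends its life after its cap is removed, when a 5′ to 3′ exonuclease degrades it from the front. In plants part of this decay takes place while ribosomes still translate the message, so that the exonuclease trails the last ribosome and leaves uncapped ends spaced by the ribosome's steps of one codon. GMUCT, which stands for a global map of uncapped and cleaved transcripts, sequences such ends of polyadenylated RNA, together with the ends that cleavage of a message leaves. A decay index condenses these reads into 1 value per gene. The formula behind it was not given in the sources used here. A low value is therefore described as low, and nothing is drawn from it about how a message decays.

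The abh1 group (2 libraries) came from Col-0 Arabidopsis thaliana plants with a loss-of-function mutation of ABH1, the large subunit of the nuclear cap-binding complex, and the Col-0_CHX group (2 libraries) from plants labelled wild type in the same Col-0 background. All 4 libraries are labelled as immature inflorescence of plants about 4 weeks old, grown in 16 h of light and 8 h of dark and described as otherwise untreated, and were read at 50 nt. The labels do not say what CHX means, and the titles of the abh1 libraries carry numbers whose meaning is not stated. The groups therefore differ in genotype and, by title, in CHX, and these cannot be told apart. No label ties the replicates to separate plants, and p-values then measure just how far these libraries lie apart, a spread that may be technical.

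The abh1 files listed 22495 and 22492 loci and the Col-0_CHX files 18321 and 18215. The number of reads is unknown, and a value shared by over 10 loci was held by 27.2% to 29.3% of loci in abh1 and by 42.7% to 43.6% in Col-0_CHX. Markers of the labelled tissue differed between the groups: both abh1 libraries listed all 12 flower and all 7 anther markers, while 0 of the 12 and 0 of the 7 were listed by both Col-0_CHX libraries. Of 8 root markers, 5 were listed by both libraries of abh1 and 2 by both of Col-0_CHX. The groups thus also differ in which tissue markers have an index, which cannot be told apart from genotype and CHX. In such bulk samples fewer cells of a type and less RNA per cell cannot be told apart, and the part of this difference in the results below was not tested. For ABH1 (AT2G13540) the index was 1.01 and 1.19 in abh1 compared with 1.86 and 1.62 in Col-0_CHX. As the index is no expression level, it does not check the genotype.

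Of all loci that a library listed, 10.4% and 10.6% lay below 0.8 in the abh1 libraries and 9.09% and 10.5% in the Col-0_CHX libraries. Low values were rarer among the 6572 loci without shared values. Of those, 207 and 201 (3.15% and 3.06%) lay below 0.8 in abh1 and 136 and 186 (2.07% and 2.83%) in Col-0_CHX. Of the 6572 loci 6088 were at or above 0.8 in every library, 308 lay below it in 1 library, 130 in 2, 22 in 3 and 24 in all 4. The median index of the 24 members was 0.468 and 0.467 in abh1 and 0.560 and 0.553 in Col-0_CHX, where the median of the 6572 loci was 1.14 and 1.14 in abh1 and 1.35 and 1.28 in Col-0_CHX. Of the 24, 5 stayed below 0.5 in every library, 7 stayed at or above 0.5 in every library, and 12 had values on both sides.

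**Figure D1:**
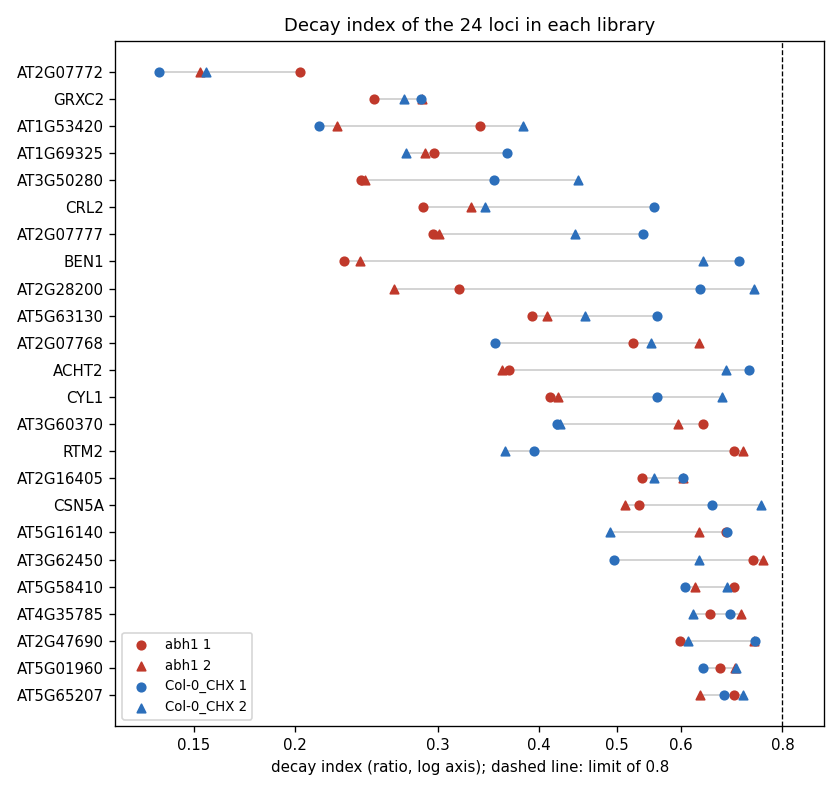
Decay index of the 24 loci in each of the 4 libraries, on a log axis, ordered by the mean of the log2 index; circles are replicate 1, triangles replicate 2, red abh1 and blue Col-0_CHX, and the grey line spans the 4 values. AT2G07772 lies below all other members in every library, and GRXC2 stays between 0.251 and 0.287. The 2 groups do not overlap for 12 of the 24 members, BEN1, ACHT2 and RTM2 among them. Over the 6572 loci without shared values 64.5% do not overlap.

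The 7 members with a gene symbol were GRXC2, CRL2, BEN1, ACHT2, CYL1, RTM2 and CSN5A, and the other 17 are known here by locus only. GRXC2 and ACHT2 are both redox proteins of the thioredoxin fold. GRXC2 (AT5G40370) encodes glutaredoxin C2, an enzyme that reduces disulfide bonds with electrons from glutathione. Its index was 0.251 and 0.287 in abh1 and 0.286 and 0.273 in Col-0_CHX. The groups overlapped, and the highest of the 4 values was 1.15 times the lowest. ACHT2 (AT4G29670), an atypical thioredoxin named for its cysteine and histidine rich active site, had an index of 0.368 and 0.360 in abh1 compared with 0.727 and 0.682 in Col-0_CHX. Both abh1 values lay below both Col-0_CHX values.

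Values of relatives by name are given beside these, without a claim that they differ from other loci. GRXC1, the glutaredoxin with the closest symbol, had 1.34 and 1.46 in abh1 and 1.06 and 0.985 in Col-0_CHX. GRX4 had 0.904 and 0.948 against 1.28 and 1.20, and GRXS17, a glutaredoxin joined to a thioredoxin-like domain, 1.26 and 1.28 against 1.18 and 1.5. Both were above 0.8 throughout. The nearest to the low set was GRXS13, with 0.778 and 0.667 in abh1 and 1.15 and 0.714 in Col-0_CHX, at least 1 of which was shared by many loci. GRX480 had 0.620 and 1.17 in abh1 and 0.832 and 0.691 in Col-0_CHX, below 0.8 in 1 library of each group. At least 1 value of GRXS17 and 1 of GRX480 was shared by many loci too. Among the ACHT thioredoxins, ACHT4 had 1.20 and 1.14 in abh1 against 2.13 and 1.39, and ACHT5 had 1.09 and 1.10 against 1.96 and 2.26. ACHT2 was thus below both of these in each of the 4 libraries.

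CRL2 and BEN1 belong to the same broad family of reductases, whose best known members act on the precursors of lignin and of flavonoid pigments. CRL2 (AT2G33600) is named as a relative of cinnamoyl-CoA reductase. Its index was 0.288 and 0.330 in abh1 and 0.555 and 0.343 in Col-0_CHX. The groups did not overlap, but the second Col-0_CHX value lay close to the abh1 values. CRL1 (AT2G33590), the relative that lies next to CRL2 on chromosome 2, had 0.832 and 0.990 in abh1 and 1.43 and 1.52 in Col-0_CHX, above 0.8 in every library. BEN1 (AT2G45400), which acts in the metabolism of brassinosteroids and was named for enhancing a mutant of their receptor, had 0.230 and 0.240 in abh1 and 0.707 and 0.638 in Col-0_CHX. It was the 2nd lowest and the 5th lowest of the 6572 loci in the abh1 libraries, and only the 76th and 60th lowest in Col-0_CHX.

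The other 3 members with a symbol have unrelated roles. CSN5A (AT1G22920) is the catalytic subunit of the COP9 signalosome, the complex that removes the ubiquitin-like modifier from cullin ubiquitin ligases. Its index was 0.532 and 0.512 in abh1 and 0.654 and 0.753 in Col-0_CHX. CSN5B, the second copy of this subunit, had 0.924 and 1.55 in abh1 and 2 and 0.333 in Col-0_CHX, so its replicates disagreed too much to place it. CSN6A had 1.05 and 1.16 against 1.78 and 1.36, and CSN6B 1.05 and 0.973 against 1.17 and 2.

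CYL1 (AT5G13690), annotated as an N-acetyl-glucosaminidase, a type of enzyme that trims sugar chains, had an index of 0.413 and 0.423 in abh1 compared with 0.560 and 0.674 in Col-0_CHX. RTM2 (AT5G04890), which restricts the long-distance movement of tobacco etch virus, had 0.697 and 0.714 in abh1 and 0.394 and 0.363 in Col-0_CHX. It was the member with a symbol in which Col-0_CHX was the lower group. RTM1, a lectin-like protein of the same resistance, had 1.402 and 1.24 in abh1 and 0.8 and 0.333 in Col-0_CHX, and RTM3 had 2.53 and 1.63 against 1.34 and 2.62. In all, the 5 symbol stems (GRX, ACHT, CRL, CSN and RTM) held 15 further genes, of which 14 had an index in all 4 libraries, 0 lay below 0.8 in all 4, and 11 were never below 0.8 in a library that listed them. Over all 17049 loci 0.381% lay below 0.8 in all 4 libraries and 80.2% in none, so a count of 0 among so few relatives is near the background and no result about them. These relatives were looked up by symbol after the members were known.

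**Figure D2:**
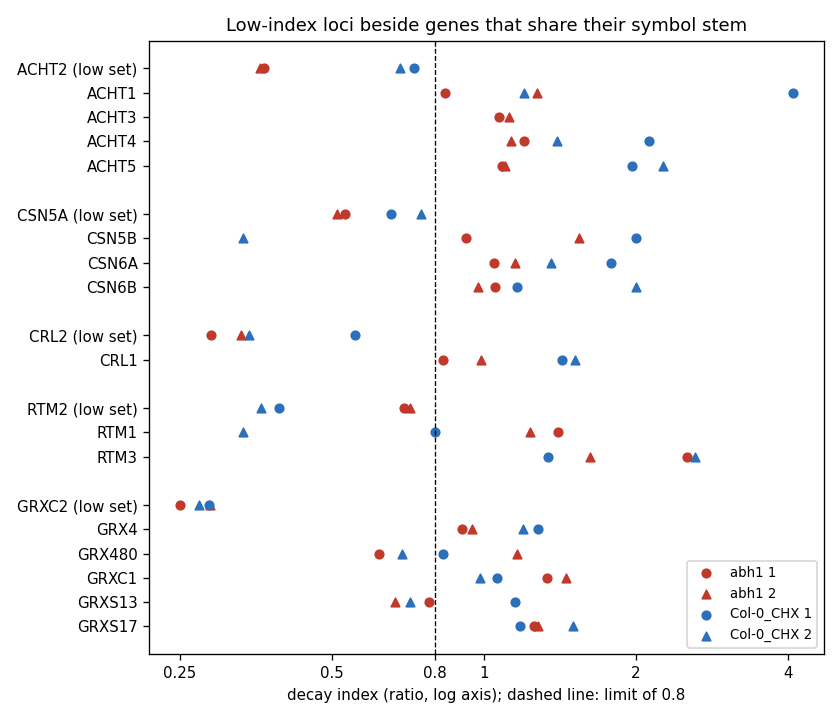
Decay index, on a log axis, of 5 low-index loci and of the genes that share their symbol stem, with 1 point per library (circles replicate 1, triangles replicate 2, red abh1, blue Col-0_CHX). The genes of the low set lie left of the dashed limit of 0.8 in all 4 libraries, and none of the 15 relatives does, as few loci do (0.381% of all 17049).

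The lowest mean index among the members belonged to AT2G07772, with 0.203 and 0.153 in abh1 and 0.136 and 0.155 in Col-0_CHX. It was the lowest of the 6572 loci in 3 libraries and the 2nd lowest in the second Col-0_CHX library. In the order of mean levels, it was also the single member whose 4 values all lay below those of the next one. For the other 22 of the 23 neighbouring pairs in that order the ranges of the 4 values overlapped. The order within each of those pairs was therefore not resolved.

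AT2G07772, AT2G07777 and AT2G07768 lie on the short stretch of chromosome 2, near the centromere, that is known to carry a large copy of the mitochondrial genome. AT2G07777 had an index of 0.296 and 0.302 in abh1 compared with 0.539 and 0.443 in Col-0_CHX. AT2G07768 had 0.523 and 0.630 against 0.353 and 0.550, with the groups overlapping. Nuclear and mitochondrial copies there are nearly identical, and reads can be assigned to either. The values of these 3 loci may be uncertain for that reason, which was not tested. How reads with several matches were treated by the authors was not given in the sources used here.

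Other loci of that stretch also had low values, more often in some libraries than in others. The stretch was taken as the run of 94 protein-coding loci from ABCI5 (AT2G07771) to AT2G07741, in the order of the RefSeq annotation, after the members were known. Of these 60 had an index in some library, 41 in all 4, and 15 in all 4 without a shared value, among them the 3 members. Below 0.8 were 13 and 9 of the 41 loci (31.7% and 22.0%) in the abh1 libraries. In the Col-0_CHX libraries 18 and 20 of them (43.9% and 48.8%) were. Of all 17049 loci 5.87%, 6.11%, 6.92% and 8.59% were below it. Each count out of the 41 includes the 3 members, which the rule itself places below 0.8, so these shares are a description. AT2G07719 also lay below 0.8 in every library, with 0.641 and 0.769 in abh1 and 0.237 and 0.5 in Col-0_CHX, and is no member because of shared values. The stretch was not low as a whole. AT2G07718 had 2.48 and 2.93 in abh1 and 5.39 and 5.33 in Col-0_CHX, and AT2G07751 had 1.09 and 1.12 against 1.35 and 1.34. AT2G07671 was low in 1 group only, with 1.10 and 1.46 in abh1 and 0.484 and 0.437 in Col-0_CHX. Without the 3 members of this stretch 21 members were left.

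**Figure D3:**
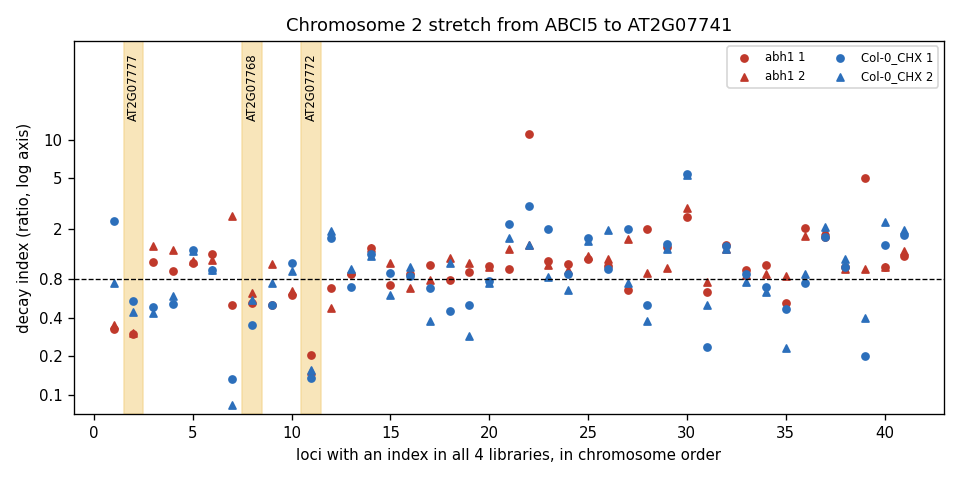
Decay index, on a log axis, of the 41 loci of the chromosome 2 stretch with an index in all 4 libraries, in chromosome order (circles replicate 1, triangles replicate 2, red abh1, blue Col-0_CHX). The 3 shaded members lie below the dashed limit of 0.8 in every library, as does 1 other locus, AT2G07719, and the values of the remaining loci lie on both sides of it.

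Of the members without a symbol outside that stretch, 3 had a mean near that of GRXC2. AT1G53420 had an index of 0.339 and 0.225 in abh1 compared with 0.214 and 0.382 in Col-0_CHX. Its replicates differed 1.502-fold and 1.78-fold, the widest spread between replicates of any member in either group. AT1G69325 had 0.297 and 0.289 against 0.365 and 0.274, again with the groups overlapping. AT3G50280 was steady in abh1, at 0.241 and 0.244, and higher in Col-0_CHX, at 0.352 and 0.447.

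Further members without a symbol are given next and form no group by level. AT2G28200 had an index of 0.319 and 0.265 in abh1 compared with 0.633 and 0.738 in Col-0_CHX, and AT5G63130 had 0.393 and 0.410 against 0.561 and 0.456. In both, each abh1 value lay below each Col-0_CHX value. AT3G60370 went the other way, with 0.638 and 0.595 in abh1 and 0.422 and 0.425 in Col-0_CHX. AT3G62450 did too, with 0.736 and 0.758 against 0.495 and 0.632.

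In 7 of the 24 members the highest of the 4 values was less than 1.3 times the lowest. One was GRXC2, and the other 6 sat between 0.5 and 0.8. AT5G01960 was the most even, with 0.671 and 0.698 in abh1 and 0.638 and 0.702 in Col-0_CHX, a ratio of highest to lowest of 1.10. AT2G16405 had 0.536 and 0.602 against 0.603 and 0.556, and AT5G65207 had 0.697 and 0.632 against 0.678 and 0.715. AT4G35785, AT5G58410 and AT2G47690 spanned 0.621 to 0.710, 0.606 to 0.698 and 0.598 to 0.739. The last member, AT5G16140, had 0.682 and 0.631 in abh1 and 0.683 and 0.491 in Col-0_CHX, so 1 Col-0_CHX library stood below the other 3 values.

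The spread between replicates of the members was close to that of the other loci. The higher replicate was a median of 1.08 times the lower in abh1 and 1.16 times in Col-0_CHX, against 1.07 and 1.14 over the 6572 loci. Across the 6572 loci, which are not independent replicates, the log2 index correlated at r = 0.76 between the abh1 libraries, at 0.55 between the Col-0_CHX libraries and at 0.25 to 0.28 between libraries of different groups.

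The comparison of abh1 with Col-0_CHX asks whether the index of a gene differs between the 2 kinds of library. Among the members BEN1, AT2G28200 and ACHT2 had the lower index in abh1 by the widest margin, and RTM2 the higher. The log2 difference, abh1 minus Col-0_CHX, was -1.51 ± 0.14 (SE of the fit over all 17049 loci, 2 libraries per group) for BEN1, which is a 2.85-fold higher index in Col-0_CHX. It was -1.23 ± 0.18 (SE) for AT2G28200 and -0.95 ± 0.13 (SE) for ACHT2, or 2.35-fold and 1.93-fold. RTM2 had 0.90 ± 0.14 (SE), a 1.86-fold higher index in abh1. The rule keeps the values of both groups below 0.8, which limits how far the groups can differ.

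Over all 17049 loci limma's moderated test, two-sided and adjusted by Benjamini-Hochberg, called 0 loci (0%) and 0 of the 24 members, whose adjusted p ran from 0.167 to 0.969. At an unadjusted p under 0.05 there were 8 members, 6 lower and 2 higher in abh1, where 20.1% of all loci reached it, 17.2% lower and 2.84% higher. When the same limma test was fitted over the 6572 loci without shared values, 8.63% of loci were called, 8.03% lower and 0.593% higher in abh1, and 4 of the 24 members. BEN1, AT2G28200 and ACHT2 were lower and RTM2 was higher in abh1, each with a limma adjusted p of 0.0383, and with SEs of 0.11, 0.15, 0.10 and 0.10 in this fit. In that fit 10 members had an unadjusted p under 0.05, 7 lower and 3 higher in abh1, against 32.6% of the loci, 29.5% lower and 3.09% higher. All 4 differences kept their sign after centring and after quantile normalization. The 4 calls became 0 without either abh1 library. Without the first Col-0_CHX library they became 8, where 17.3% of loci were called, and without the second 11, where 29.8% were. After centring of the libraries on their medians they were 0 as well, the smallest limma adjusted p of a member being 0.0665.

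The next in size on the lower side were AT3G50280 and AT2G07777, at -0.71 ± 0.15 and -0.71 ± 0.13 (SE of the fit over the 6572 loci), with limma adjusted p of 0.0617 and 0.0526 in that fit. From the same fit CYL1 (-0.56 ± 0.13), CRL2 (-0.50 ± 0.26) and CSN5A (-0.43 ± 0.12) had limma adjusted p of 0.0737, 0.264 and 0.0947. On the higher side AT3G60370 had 0.54 ± 0.10 (SE) there with a limma adjusted p of 0.0512. None of these 6 passed. GRXC2, at -0.061 ± 0.12 (SE), differed by less than its error.

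The groups did not overlap for 12 of the 24 members, abh1 being lower in 9 and higher in 3. Over the 6572 loci 64.5% did not overlap, 54.8% with abh1 lower and 9.78% with abh1 higher, and over the 17049 loci 56.0%, 45.2% with abh1 lower and 10.7% with abh1 higher. By sign alone 15 members were lower and 9 higher in abh1, a share of 62.5% lower. All 17049 loci had 72.2% lower, and the 6572 loci had 77.0%. The median log2 difference of the members was -0.056, where that of the 6572 loci was -0.21 and that of all 17049 loci -0.23. With each library centred on its median, which removes a shift of this size from every locus, 9 members were lower and the median was 0.16. Quantile normalization gave 21 lower and a median of -0.59, so the direction of the members as a set depends on the scaling.

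**Figure D4:**
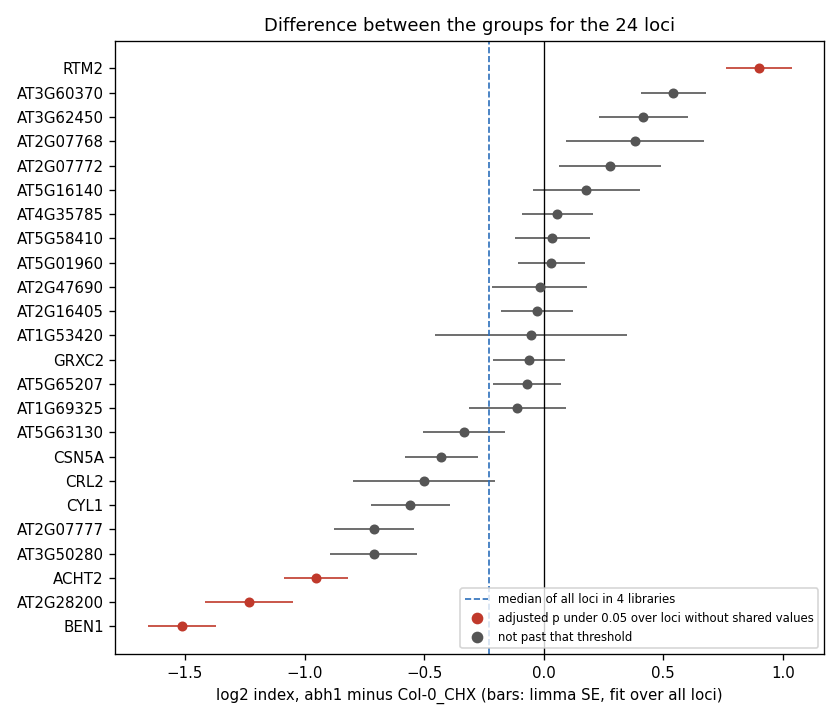
Difference of the log2 index, abh1 minus Col-0_CHX, for each of the 24 loci, with the standard error of the limma fit over all loci as bars. BEN1, AT2G28200 and ACHT2 at the low end and RTM2 at the high end (red) passed an adjusted p of 0.05 in the fit over loci without shared values, and the dashed line marks the median of all loci at -0.23.

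How far a low index in one group went with a low index in the other was read by choosing loci anew in 1 group. The other group's values were not used in that choice, whereas the rule for the 24 members used all 4 libraries. A locus still needed an index in all 4 libraries. Of the 12532 loci with an index in all 4 libraries and no shared value in abh1, 286 lay below 0.8 in both abh1 libraries. In both Col-0_CHX libraries 43 of these 286 (15%) were also below 0.8, where 1.71% of the 12532 were. In the other direction, 97 of 8086 loci without a shared value in Col-0_CHX lay below 0.8 in both libraries of that group. In both abh1 libraries 33 of these 97 (34.0%) were below 0.8, where 2.07% of the 8086 were. With no limit on shared values the shares were 14.6% and 16.6%, so the gap between 15% and 34.0% rests on that limit. Under either setting most loci that were low in one group were not low in both libraries of the other. Both the 43 and the 33 loci hold all 24 members by construction, so these shares are no separate support for the members. The loci share the same 4 libraries, and no test across loci was made.

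**Figure D5:**
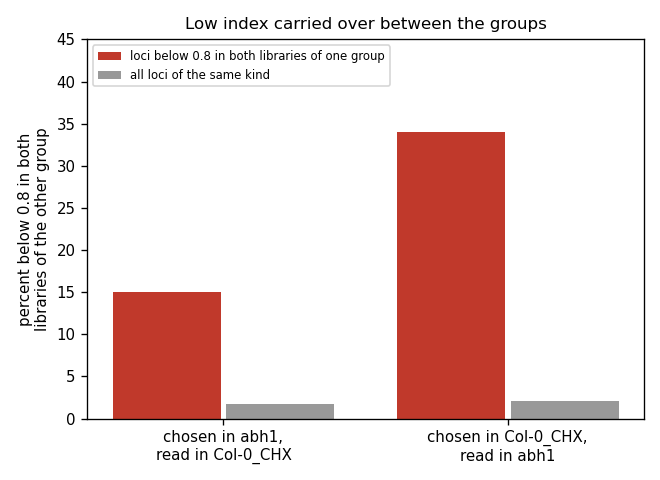
Percent of loci with an index below 0.8 in both libraries of one group, for loci chosen as below 0.8 in both libraries of the other group (red) and for all loci without shared values in the choosing group (grey). The red bars stand at 15% (43 of 286 loci) and 34.0% (33 of 97), the grey bars at 1.71% and 2.07%. With shared values allowed the red bars would stand at 14.6% and 16.6%.

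The members lay on all 5 chromosomes, with 3, 8, 3, 2 and 8 on chromosomes 1 to 5. These were 0.176%, 0.803%, 0.224%, 0.189% and 0.544% of the loci without shared values on each. Of the 8 on chromosome 2, 3 lie in the stretch described above. No member had another member as its nearest protein-coding neighbour. Of the 48 nearest neighbours, 36 had an index in all 4 libraries, and 0 of these were below 0.8 in all 4, where 0.381% of all loci were, so nothing about the neighbours is read from the 0. CSD2, a superoxide dismutase beside AT2G28200, had 1.08 and 1.13 in abh1 and 1.90 and 1.77 in Col-0_CHX. PAO1 (AT5G13700), a polyamine oxidase and the neighbour of CYL1, came closest, with 0.663 and 0.812 in abh1 and 0.802 and 0.813 in Col-0_CHX.

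PAO1 was also among the loci just outside the limit. The highest of its 4 values was 0.813, after 0.806 for CaS (AT5G23060), a calcium-binding protein of the chloroplast membranes, with 0.773 and 0.759 in abh1 and 0.806 and 0.739 in Col-0_CHX. GGH1, which cleaves the glutamate tails of folates, and EMB976 followed at 0.816 and 0.826. Just inside were AT3G62450, CSN5A, AT2G47690 and AT2G28200, with highest values of 0.758, 0.753, 0.739 and 0.738. No locus without shared values had its highest value between 0.758 and 0.806, so any limit between those values would give the same 24 loci.

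Lists of genes grouped by function supplied 0 members. The 6 lists held 175 genes, 167 with an index in all 4 libraries and 112 of these without shared values. Over all 6572 such loci 0.365% were members, so the 0 is near the background and no result about the lists. Of the 51 targets of microRNAs and trans-acting small RNAs, which leave uncapped ends where they are cleaved, 48 had an index in all 4 libraries, and the lowest highest value was 1.13, in HAM3. Of 19 genes of messenger RNA decay 18 did, with 1.14 for XRN2, a nuclear exonuclease. XRN4, the cytoplasmic exonuclease of 5′ to 3′ decay, had 1.19 and 1.20 in abh1 and 1.91 and 1.61 in Col-0_CHX, and CBP20, the small subunit of the cap-binding complex, had 1.11 and 1.22 against 1.45 and 1.53. For the 39 light harvesting and photosystem genes the lowest highest value was 0.919, for PSBO1 of the water-splitting complex, for 19 histone genes 1.20, in HTA9, and for 7 genes whose upstream open reading frame is conserved 1.05, in bZIP44. None of these lists had a gene below 0.8 throughout, where 0.381% of all 17049 loci were. The 40 ribosomal protein genes had 1, RPL10B, with 0.770 and 0.769 in abh1 and 0.5 and 0.467 in Col-0_CHX, which is no member because many loci share the value 0.5. In limma's test over all loci 0 genes of these lists passed, as for all 17049 loci.

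RPL10B was 1 of 41 loci below 0.8 in all 4 libraries that were left out for a shared value, 18 of them for a shared value in a single library. The shared value was in the first and second abh1 library for 14 and 18 of the 41, and in the first and second Col-0_CHX library for 23 and 26. With a symbol there were 11: RPL10B, HOS10, UBQ13, RTE1, GSTU4, CSLA07, DSEL, BBX19, DOT3, WRKY72 and GMD1. RTE1, a negative regulator of ethylene responses, had 0.177 and 0.182 in abh1 and 0.244 and 0.333 in Col-0_CHX, lower than GRXC2 in abh1. DOT3, named for its defect in vein patterning, had 0.16 and 0.190 in abh1 and 0.75 in both Col-0_CHX libraries. The glutathione transferase GSTU4 had 0.25 and 0.4 against 0.557 and 0.382. BBX19, a B-box regulator of flowering and light responses, had 0.799 and 0.605 against 0.536 and 0.5. The number of reads behind these ratios is unknown.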

How the data were processed

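GMUCT libraries of polyA-selected RNA were analysed, 2 labelled as an ABH1 mutant and 2 labelled Col-0_CHX. Per the submitters' processing notes, cutadapt 1.4.2, STAR 2.4.0 and TAIR10 were used. The authors deposited 1 index per gene model and library, a linear ratio. The formula, annotation, read minimum and depth were not given in the sources used here. No counting interval was made. The members and lists were chosen with earlier results of these data known.

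Log2 indices (no pseudocount, no index being 0) of the 17049 loci listed in every library went through limma 3.58.1 with R 4.3.3 (lmFit, eBayes, no trend, no covariate, Benjamini-Hochberg adjusted p under 0.05). Alternatives left out each library, changed the limits, centred or quantile normalized, or added a trend with robust fitting or a replicate block. Python 3.11.15 was used for the rest.

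Symbols and gene order came from RefSeq (TAIR10.1), with 24 of 24 members found. As its build differs from TAIR10, no coordinates are printed. Protein features were planned and not analysed here. The naming rule took the 12 lowest members with a symbol, of which there were 7, the largest differences, loci next to the limit, list members and ABH1, CBP20 and XRN4. Other members are named by locus outside the rule, and relatives and neighbours were chosen after values were seen.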

Additional observations from a re-analysis of the deposited data

How the results depend on the processing

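The number of members (24) fell to 14 with an index limit of 0.7 and rose to 52 with 0.9 and to 65 with no limit on shared values. It was 27 for the lowest 10% of each library, 21 and 28 when at most 5 or 20 loci could share a value, and 30 to 58 without 1 library. Members called by limma numbered 0 over all loci under centring, quantile normalization, trended robust fitting, a replicate block, an adjusted p under 0.1 and without each library. Over loci without shared values they numbered 4 in the fit of all libraries, 0 after centring, 3 with a replicate block (RTM2 being lost) and 0, 0, 8 and 11 without 1 library. In these last fits a group's single remaining library was taken to vary as much as the libraries of the other group do. Members lower in abh1 were 15, 9 after centring and 13 to 16 without 1 library, and their median difference was 0.16 after centring, -0.59 after quantile normalization and -0.10 to -0.043 without 1 library. The replicate block left that median at -0.056 and changed no call over all loci. The numbers do not pair the libraries (r = -0.0043 over loci between the deviations of replicate 1 from the means of both groups). The share of Col-0_CHX low loci that were low in abh1 was 16.6% with no limit on shared values, against 34.0%.

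Of 214 single-locus differences recomputed, 183 kept direction and side of the threshold, 4 came to pass over loci without shared values (those of BEN1, AT2G28200, ACHT2 and RTM2, named in the report), and 27 changed sign, none of them past the threshold. After centring these were GRXC2 (0.16), AT1G53420 (0.17), AT1G69325 (0.11), AT2G16405 (0.19), AT2G47690 (0.20) and AT5G65207 (0.15). After quantile normalization they were AT2G07772 (-0.52), AT2G07768 (-0.025), AT5G16140 (-0.099), AT5G58410 (-0.23), AT4G35785 (-0.19) and AT5G01960 (-0.23). The cause was not tested. Differences that changed sign without 1 library had ranges of -0.16 to 0.037 (GRXC2), -0.47 to 0.37 (AT1G53420), -0.32 to 0.097 (AT1G69325), -0.11 to 0.057 (AT2G16405), -0.060 to 0.42 (AT5G16140), -0.050 to 0.12 (AT5G58410), -0.018 to 0.13 (AT4G35785), -0.17 to 0.13 (AT2G47690), -0.036 to 0.10 (AT5G01960) and -0.14 to 0.00099 (AT5G65207). The planned comparison of protein features was not run. The depth behind each index is unknown and limits every value.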
